A study of Helicoverpa armigera with 6 samples.

Results

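In siHDAC3 larvae, 114 genes gave no sequenced fragment in any library, while each reached at least 1 FPKM in every siNC library. FPKM is a fragment count scaled to the length of the gene and to the depth of the library, and a fragment is 1 sequenced piece of RNA. The 114 were found by this rule among 17082 annotated genes, those with a HaOG identifier, in a table of 18203 genes that also lists 1121 transcripts outside the annotation. Another 8134 annotated genes reached 1 FPKM in every siNC library and had fragments in siHDAC3 larvae, so the silent genes made up 1.38% of 8248.

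The animals were final-instar larvae of *Helicoverpa armigera*, the cotton bollworm, injected just after the molt with a small interfering RNA. The siHDAC3 group received a sequence directed against *HDAC3*, and the siNC group received a sequence directed against a *C. elegans* gene, with 3 libraries of each. RNA came from whole insects, and the sources used here do not say how many larvae made up a library or how long after injection they were taken. Where replicates come from is not stated, so p-values measure the spread between these libraries. The table calls its columns siHA5 and CK. They were taken as siHDAC3 and siNC because the series has no other groups, and the knockdown itself was not checked here because no identifier was matched to *HDAC3*.

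HDAC3 is an enzyme that removes acetyl groups from histones as a subunit of nuclear receptor co-repressor complexes. Chromatin that has lost these groups tends to be packed more tightly and read less. In the final larval instar, juvenile hormone and 20-hydroxyecdysone set the switch from feeding to metamorphosis, and many genes of the whole insect are turned on or off within this instar. In RNA from whole larvae, fewer cells of a type and less RNA per cell cannot be told apart.

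The deposited table gives identifiers and positions but no gene names, and 0 of the 114 identifiers matched the RefSeq table used here. The genes are therefore given by identifier, length and place, with no function. Positions are on the scaffolds named in the table, for which the sources name no build of this insect.

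The libraries held between 10084667 and 12389053 fragments on genes. In every library the product of FPKM and length came in equal steps, within 0.1 fragments for 100% of the values above 0, so the fragments behind each value could be worked out. The values of all 6 libraries chose the 114 genes, so their levels and their absence are a description, not a test. A total of 0 fragments allows up to 3 in the siHDAC3 group, which covers counting error only. With this limit and the deposited scaling, the fall in siHDAC3 larvae came to at least 4.02-fold for the gene with the weakest limit and at least 12072-fold for HaOG203617, which had the strongest. The median of these limits was 331.0. They rest in part on siNC replicate 1. Without that library the median limit was 181.8-fold, that of HaOG203617 was 3080-fold, and the strongest was that of HaOG200170, at 3553-fold. Without siHDAC3 replicate 1 or 3, which leaves fewer libraries to show a fragment, the median limit was 202.0-fold or 220.0-fold. With the summed fragments of each library as its depth, the median limit was 169.2. At its mean siNC level and with the deposited scaling, the median gene would have given 387.2, 272.8 and 333.1 fragments in siHDAC3 replicates 1, 2 and 3. That scaling differed between the groups, as given with the processing.

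The levels of these genes in siNC larvae differed widely, with means from 1.79 to 1005.4 FPKM. The mean over the siNC libraries was under 10 FPKM for 37 genes, from 10 to under 100 FPKM for 53 genes and at least 100 FPKM for 24 genes, with a median of 17.4 FPKM. Within siNC replicate 1 the median of the 114 genes was 34.3 FPKM, within replicate 2 it was 6.10 FPKM and within replicate 3 it was 10.5 FPKM. The genes together took 1.29% of the fragments in siNC replicate 1, 0.187% in replicate 2 and 0.304% in replicate 3. So 1 control library held more of the RNA of these genes than the other two.

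**Figure D1:**
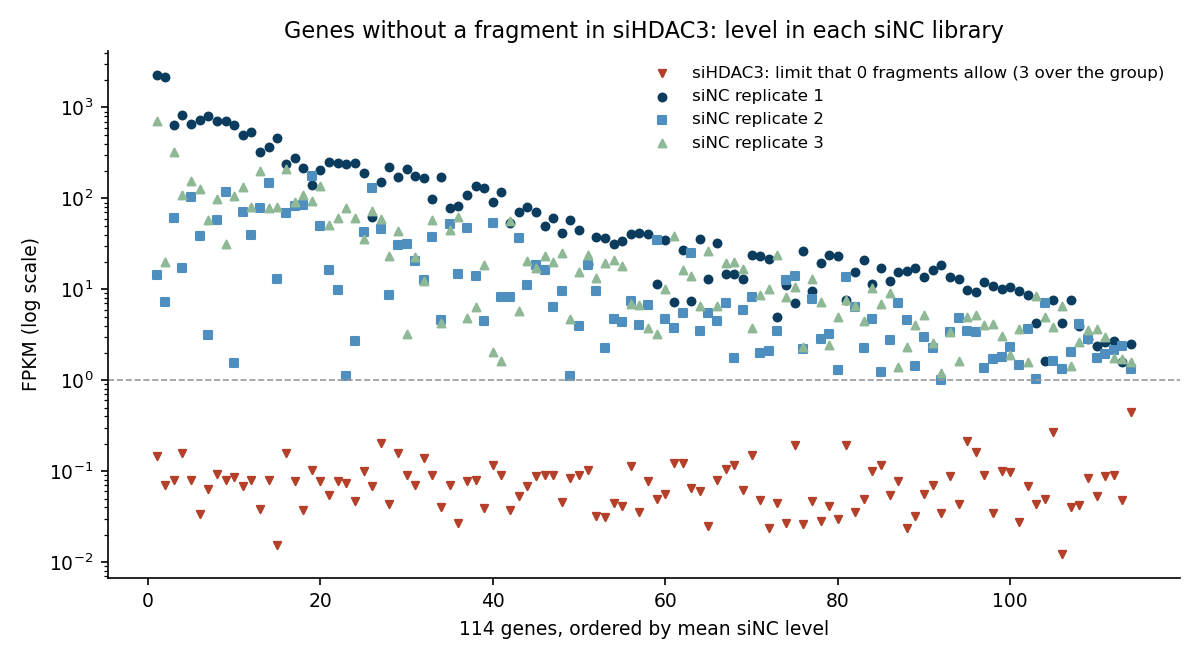
Level of each of the 114 genes, ordered by mean siNC level (horizontal axis), in FPKM on a log axis. Triangles pointing down give the limit that 0 fragments allow in siHDAC3 (3 fragments over the group), and the other symbols give the siNC libraries, with a dashed line at 1 FPKM. The siHDAC3 limits lie between 0.0123 and 0.447 FPKM, and siNC replicate 1 is the highest library for 90 of the 114 genes.

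The most abundant of them was HaOG210108, a gene of 472 bases on scaffold KZ150128.1 from 169876 to 171611, minus strand. It had 0 fragments in each siHDAC3 library, against 2294, 14.4 and 708.3 FPKM in siNC replicates 1, 2 and 3. HaOG200612, of 999 bases on scaffold KZ149806.1 from 2182576 to 2184461, was also at 0 in siHDAC3 and had 2155, 7.21 and 19.9 FPKM in siNC. Its siNC libraries held 16688, 70 and 161 fragments. For both genes siNC replicate 1 stood far above the other controls, yet the lowest control library still held 66 fragments of HaOG210108 and 70 of HaOG200612.

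HaOG200477 had 641.8, 61.2 and 325.3 FPKM in siNC replicates 1, 2 and 3, and HaOG200505 had 658.0, 103.5 and 157.2 FPKM. Both lie on scaffold KZ149811.1, the first from 135608 to 137309 and the second from 1851862 to 1853575, and their lengths are 879 and 876 bases. HaOG200481, of 876 bases on the same scaffold from 515220 to 516841, had 708.1, 117.6 and 31.6 FPKM. These 3 genes of almost equal length were all above 30 FPKM in every control library and at 0 in every siHDAC3 library. The siHDAC3 level was at least 4325-fold, 3851-fold and 3593-fold lower for HaOG200477, HaOG200505 and HaOG200481. Without siNC replicate 1 these limits were 2438-fold, 1639-fold and 937.7-fold.

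Of the others among the 12 highest means, HaOG206783 had 719.5, 38.4 and 126.6 FPKM in siNC, and HaOG207724 had 706.0, 58.4 and 97.6 FPKM. HaOG200594 had 493.0, 70.8 and 132.8 FPKM, and HaOG210110 had 541.1, 39.3 and 79.5 FPKM. In all 4, siNC replicate 1 was highest, replicate 3 came next and replicate 2 was lowest. HaOG211279, HaOG200510 and HaOG211282 had the same order with wider gaps. HaOG200510 was at 805.5, 3.14 and 58.3 FPKM in siNC replicates 1, 2 and 3, and HaOG211282 was at 641.7, 1.54 and 106.0 FPKM, with only 12 fragments in replicate 2. HaOG211279 is described with its neighbours further on.

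Level and evenness went separate ways in the remaining 12 genes with a mean of at least 100 FPKM. HaOG200170, HaOG200515, HaOG203476, HaOG200489, HaOG214207, HaOG203860 and HaOG200427 stayed above 45 FPKM in every control library. HaOG203476, of 437 bases on scaffold KZ149930.1 from 545960 to 547578, was at 0 in siHDAC3 and had 238.8, 69.9 and 209.5 FPKM in siNC replicates 1, 2 and 3. HaOG214207, on scaffold KZ149857.1 from 886089 to 890700, had 218.7, 84.7 and 108.1 FPKM in siNC. By contrast HaOG215352, on scaffold KZ149869.1, had 245.1, 2.68 and 60.8 FPKM, and HaOG200394, on scaffold KZ149843.1, had 248.0, 9.72 and 61.0 FPKM. These pairs of genes were almost equal in siNC replicate 1 and far apart in replicate 2.

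The order of the control libraries was shared by most of the 114 genes. siNC replicate 1 was highest for 90 genes (78.9%), replicate 2 for 10 and replicate 3 for 14. Among the 8134 other genes at 1 FPKM or more in every siNC library, replicate 1 was highest for 37.4%. Among the 1076 of those that were called lower in siHDAC3 larvae, it was highest for 45.4%. The median ratio of siNC replicate 1 to replicate 2 was 5.21 for the silent genes, 1.29 for the other genes called lower and 1.03 for the other genes at 1 FPKM or more. A ratio above 10 was seen in 31 of the 114 genes (27.2%), in 3.90% of the other genes called lower and in 1.49% of the other genes at 1 FPKM or more. The part of siNC replicate 1 in these levels was not tested. Without it, the same rule gave 118 genes. All 114 are among them by construction, because leaving out a library only removes a condition.

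The other 24 genes had their highest level in siNC replicate 2 or 3, and only 1 of them had a mean of at least 100 FPKM. This was HaOG203860, on scaffold KZ149812.1 from 2289091 to 2301294, which was at 0 in siHDAC3 and had 140.3, 174.4 and 93.7 FPKM in siNC replicates 1, 2 and 3. HaOG200596, on scaffold KZ149861.1, had 62.3, 128.7 and 72.8 FPKM in siNC, although the silent HaOG200594 near it was highest in replicate 1. HaOG206966, on scaffold KZ149820.1, had 11.3, 35.2 and 3.26 FPKM. Replicate 3 was well above the other controls in HaOG208581, with 7.23, 3.79 and 38.3 FPKM, and in HaOG200038, with 5.02, 3.48 and 23.9 FPKM. So the silent genes did not all follow 1 order over the controls.

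The spread over the controls was wide. The coefficient of variation over the 3 siNC libraries, the SD divided by the mean, had a median of 0.888 for the silent genes, 0.330 for the other genes called lower and 0.258 for the other genes at 1 FPKM or more. The siNC libraries lay within 2-fold of each other for 13 of the 114 genes (11.4%), against 52.7% of the other genes called lower. The widest spreads among genes with a mean of at least 5 FPKM were those of HaOG200612, HaOG206460 and HaOG200510, with coefficients of 1.70, 1.60 and 1.55. HaOG206460, on scaffold KZ150000.1 from 182228 to 187153, had 172.5, 4.597 and 4.31 FPKM in siNC, so 1 library made up almost the whole of its mean.

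**Figure D2:**
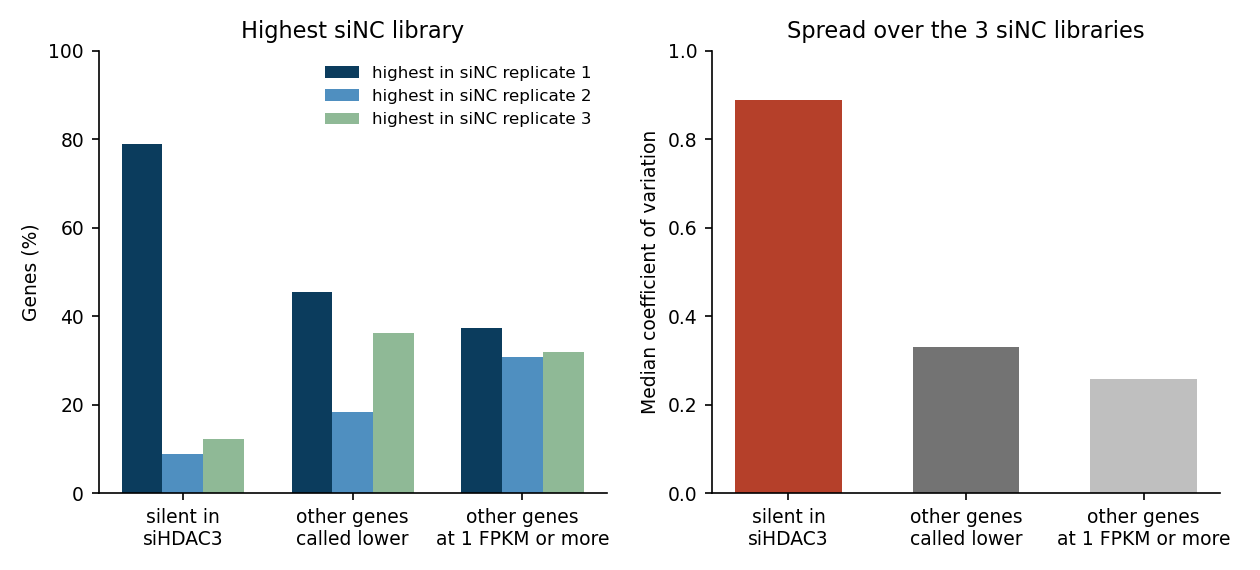
Left, share of genes (%) whose highest siNC library was replicate 1, 2 or 3, for the 114 genes silent in siHDAC3, 1076 other genes called lower and 8134 other genes at 1 FPKM or more in every siNC library. Right, median coefficient of variation over the 3 siNC libraries for the same sets. The silent genes stand at 78.9% for replicate 1 and at a median coefficient of 0.888.

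A small number of silent genes had even levels in the controls. HaOG214885, of 681 bases on scaffold KZ150460.1 from 121 to 2539, was at 0 in siHDAC3 and had 18.9, 18.6 and 23.7 FPKM in siNC, with 100, 123 and 131 fragments. HaOG211534 had 11.3, 12.7 and 8.25 FPKM, and HaOG210097 had 9.62, 7.74 and 13.01 FPKM. Their coefficients of variation were 0.141, 0.213 and 0.264, the smallest among the 98 silent genes with a mean of at least 5 FPKM. In these 3 genes all control libraries were alike. HaOG211534 lies on scaffold KZ149838.1 from 356029 to 371407 and has the third longest span of the 114 genes.

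At the low end were HaOG207378, HaOG215484 and HaOG209727, with means of 2.21 ± 0.464, 1.90 ± 0.442 and 1.79 ± 0.609 FPKM in siNC (SD, n = 3 each). HaOG209727 is 156 bases long, the shortest of the 114, and held only 3, 2 and 2 fragments in the siNC libraries. Its limit was 4.02-fold, the weakest of all, so the depth says little of this gene. HaOG207378 and HaOG215484 held between 11 and 34 fragments in each siNC library and were at least 24.2-fold and 39.7-fold lower in siHDAC3 larvae.

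Just inside the rule, HaOG206799 had 18.5, 1.01 and 1.21 FPKM in siNC replicates 1, 2 and 3, and HaOG200148 had 1.02 FPKM in replicate 2. Next came HaOG211280, at 1.105 FPKM in replicate 2 and at 238.8 and 78.7 FPKM in replicates 1 and 3. Just outside, HaOG203684 had 0.913 FPKM in siNC replicate 2, HaOG207976 had 0.893 FPKM in replicate 2 and HaOG208486 had 0.886 FPKM in replicate 3, all with 0 fragments in siHDAC3. On the other side of the rule, 40 genes with at least 1 FPKM in every siNC library had 1 fragment in all in siHDAC3. The most abundant of these was HaOG201361, which had 1, 0 and 0 fragments in siHDAC3 replicates 1, 2 and 3, against 19844, 2324 and 3946 in siNC. HaOG200607 and HaOG205141 also had their 1 fragment in siHDAC3 replicate 1, with siNC means of 416.7 ± 372.5 and 367.8 ± 346.8 FPKM (SD, n = 3 each). The boundary at 0 therefore separates genes that differ by 1 fragment.

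To read the absence in a library that had no part in the choice, the rule was applied to 5 libraries and the chosen genes were then looked up in the sixth. With siHDAC3 replicate 1 left out, 179 genes were chosen, and 114 of them (63.7%) were at 0 in that library. With replicate 2 left out it was 114 of 158 (72.2%), and with replicate 3 left out 114 of 141 (80.9%). Of all 8248 genes at 1 FPKM or more in every siNC library, 3.53%, 3.24% and 3.31% were at 0 in siHDAC3 replicates 1, 2 and 3. The genes at 0 in the sixth library are the 114 each time by construction, and the share is what the library decides. Most of the chosen genes were thus silent in the library left out. The 8248 genes were not limited to those at 0 in the other siHDAC3 libraries, so they are not a matched background. The shares are a description, and nothing more is read from them. Under 1 FPKM, the 114 included, were 165 of 179 in replicate 1, 148 of 158 in replicate 2 and 139 of 141 in replicate 3. The highest chosen genes reached 98.3, 19.9 and 19.1 FPKM there. The share of all 8248 genes under 1 FPKM was not counted, so nothing is read from these counts.

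Among the controls the same reading set replicate 2 apart. With siNC replicate 1 left out, 118 genes were chosen and 114 of them (96.6%) were at 1 FPKM or more in it. With siNC replicate 3 left out it was 114 of 127 (89.8%). With siNC replicate 2 left out, 175 genes were chosen and 114 (65.1%) reached 1 FPKM in that library, at a median of 2.30 FPKM, and 11 were at 0. Of all genes at 1 FPKM or more in the other siNC libraries, 96.2%, 95.7% and 95.7% reached it in replicates 1, 2 and 3. The medians of the genes chosen without them were 31.9 FPKM in siNC replicate 1 and 8.25 FPKM in replicate 3. The share and the median were thus lowest for siNC replicate 2, but each library was read over a different set of genes. A control left out is also the only control not held to 1 FPKM. siNC replicate 2 alone kept 61 genes out of the rule.

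The silent genes were short. Their median length was 997.5 bases, against 1560 for the other genes at 1 FPKM or more in every siNC library and 1506 for the other genes called lower. At a given FPKM a short gene gives fewer fragments, and the part of length in their absence was not tested. Their median fragment counts in siNC were 362, 65.5 and 106.5 in replicates 1, 2 and 3. The span from start to end, introns included, had a median of 3066 bases against 5264 and 5523 in those sets. In 6 of the 114 genes (5.26%) the length equalled the span, so the model had no intron, against 6.97% of the other genes called lower and 9.40% of the other genes at 1 FPKM or more. The longest spans were those of HaOG214146, HaOG215305 and HaOG211534, at 20471, 20011 and 15379 bases. The shortest were those of HaOG208581, HaOG214177 and HaOG211681, at 571, 578 and 589 bases. The 2 strands were even, with 57 genes on each.

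**Figure D3:**
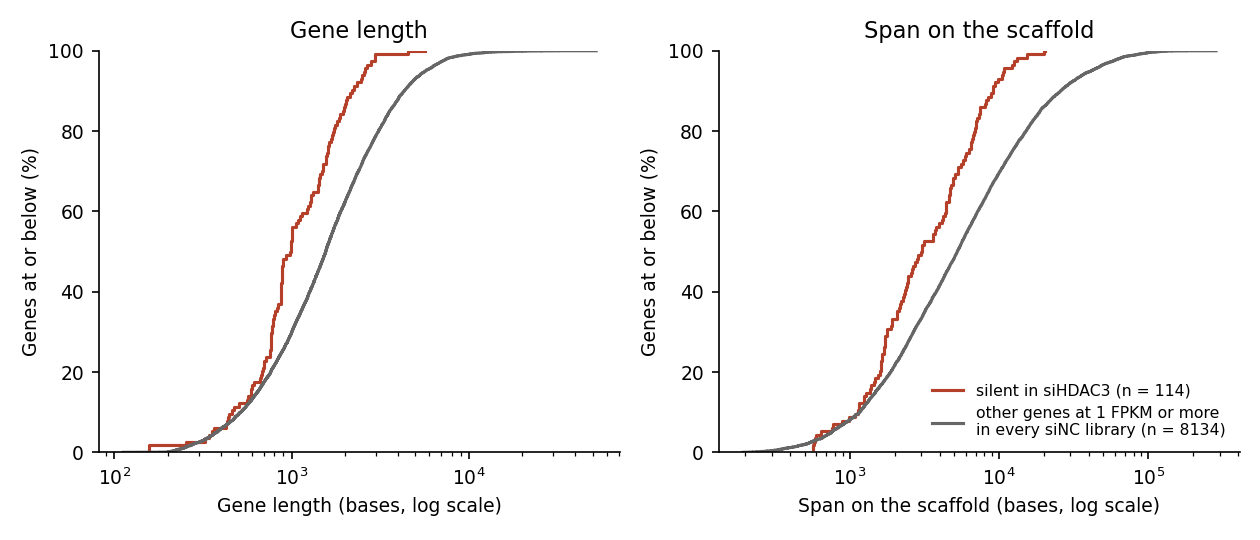
Share of genes (%) at or below a given gene length (left) and span on the scaffold (right), in bases on log axes, for the 114 genes silent in siHDAC3 and the 8134 other genes at 1 FPKM or more in every siNC library. The silent genes have the shorter median in both, 997.5 against 1560 bases of length and 3066 against 5264 bases of span.

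The silent genes were scattered over 78 of the 894 scaffolds that hold annotated genes. On 56 of these scaffolds there was 1 silent gene, on 16 there were 2 and on 6 there were at least 3. Scaffold KZ149811.1 held most, 8 of its 135 annotated genes (5.93%), where silent genes were 0.667% of all annotated genes. Scaffold KZ150194.1 held 4 of 21 and KZ150003.1 held 3 of 10. All 8 on KZ149811.1 were 873 to 888 bases long, and 5 of them were on the plus strand. The 3 on KZ150003.1, HaOG206502, HaOG206503 and HaOG206507, lay on the plus strand between 151881 and 205749, with 23.8, 12.9 and 70.6 FPKM in siNC replicate 1. On KZ149798.1, HaOG201572, HaOG201574 and HaOG201575 lay on the minus strand between 5504643 and 5530344. HaOG201572 had 98.1, 37.5 and 57.9 FPKM in siNC, HaOG201574 had 175.0, 20.4 and 22.8 FPKM, and HaOG201575 had 13.1, 5.87 and 16.9 FPKM. The only gene between them, HaOG201573, had no fragment in siHDAC3.

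Equal lengths also occurred among silent genes that do not lie side by side. HaOG200446 and HaOG200453, both 765 bases long and on the plus strand of scaffold KZ150104.1, were at 0 in siHDAC3 and had 116.2, 8.21 and 1.61 FPKM and 49.7, 16.1 and 23.4 FPKM in siNC. HaOG200447 and HaOG200452, which lie beside them and are not silent, are also 765 bases long on that strand. HaOG207378, also of 765 bases, lies on another scaffold. HaOG200432 and HaOG200475, both of 873 bases, lie on different scaffolds and had 136.7 and 32.2 FPKM in siNC replicate 1. Whether genes of equal length are alike in sequence was not tested.

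In the order of annotated genes along the scaffolds, 22 of the 114 genes (19.3%) lay directly beside another silent gene. Of all 17082 annotated genes, 211 lay directly beside a silent gene, these 22 included. Of the 1076 other genes called lower, 24.1% lay beside another of that set. That set is far larger, so its share is not a like measure. The 22 genes formed 9 runs of 2 genes and 1 run of 4. Within 10000 bases of another silent gene lay 31 genes. The count changed with the library that the rule left out, to 52 without siHDAC3 replicate 1 and 49 without siNC replicate 2, where the rule also chose more genes. All 12 pairs of silent genes lying side by side were on the same strand, against 48.0% of all 16188 pairs of annotated genes lying side by side. In 6 of the 12 pairs the lengths differed by at most 10%, against 9.74% of all pairs. The gap within the silent pairs was between 144 and 6779 bases.

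The run of 4 consists of HaOG200488, HaOG200489, HaOG200490 and HaOG200491, all on the plus strand of scaffold KZ149811.1 between 549804 and 565766 and all 888 bases long. HaOG200488 had 0 fragments in every siHDAC3 library and 41.0, 6.72 and 3.75 FPKM in siNC replicates 1, 2 and 3. HaOG200489 had 280.7, 83.3 and 91.9 FPKM in siNC. HaOG200490 had 15.7, 7.07 and 1.39 FPKM, and HaOG200491 had 107.7, 46.8 and 4.86 FPKM. Replicate 1 was the highest control in each of the 4, but the highest and the lowest of the 4 differed by over 10-fold in every control.

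The genes around this run were alike in length and mostly off in both groups. The 6 genes before it, HaOG200482 to HaOG200487, are 885 to 900 bases long on the same strand, held no fragment in siHDAC3 and held at most 3 in any siNC library. Directly after it, HaOG200492, also of 888 bases, held 3, 0 and 0 fragments in siHDAC3 and 5, 1 and 0 in siNC. Farther ahead, HaOG200480 had 0.135, 0 and 0 FPKM in siHDAC3 against 819.7, 110.4 and 88.7 FPKM in siNC, and beside it lay the silent HaOG200481. Silent genes thus stood beside genes with almost no fragment in either group along this stretch. How the counting split reads between genes of such similar length was not tested, so single values in it are uncertain.

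**Figure D4:**
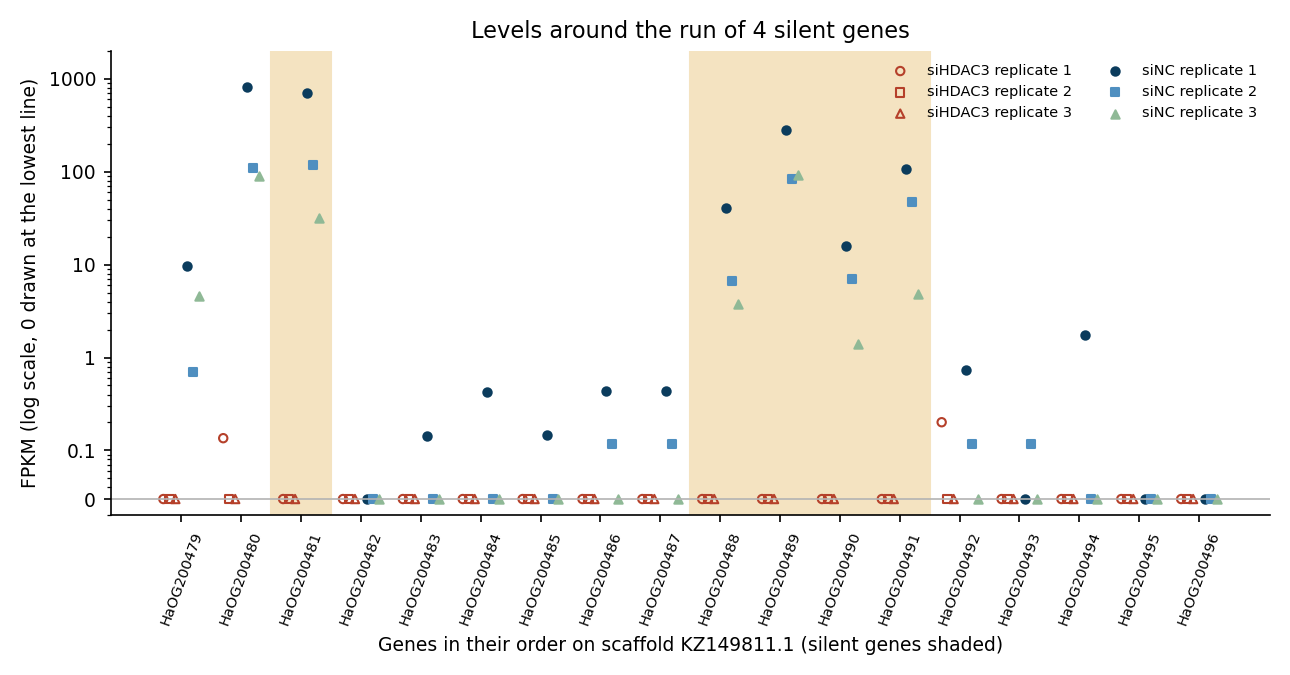
FPKM on a log axis (0 drawn at the lowest line) of 18 genes in their order on scaffold KZ149811.1, with open red symbols for the siHDAC3 libraries and filled symbols for the siNC libraries. Silent genes are shaded. The 4 shaded genes that lie side by side have 1.39 to 280.7 FPKM in siNC, while the 6 genes before them stay under 0.5 FPKM in every library.

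The run with the highest summed level was HaOG200612 and HaOG200613 on the minus strand of scaffold KZ149806.1, both 999 bases long. HaOG200613 had 0 fragments in siHDAC3 and 16.3, 2.27 and 2.59 FPKM in siNC, over 100 times less than HaOG200612 in replicate 1. Their outer neighbours HaOG200611 and HaOG200614, of 1017 and 990 bases, were also at 0 in siHDAC3. HaOG200611 had 4.44, 0 and 0 FPKM in siNC, and HaOG200614 was at 0 there too.

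On scaffold KZ150194.1, HaOG211279, HaOG211280, HaOG211282 and HaOG211283 lay on the plus strand between 169907 and 192419. HaOG211281, of 400 bases, lay between the 2 pairs. It had no fragment in siHDAC3 and 85.2, 0 and 94.7 FPKM in siNC replicates 1, 2 and 3, so siNC replicate 2 alone kept it from the rule. HaOG211279 had 829.5, 17.0 and 110.1 FPKM in siNC and HaOG211283 had 9.95, 3.49 and 4.95 FPKM. On either side, HaOG211278 had 15.8, 0 and 1.41 FPKM in siNC and HaOG211284 had 19.2, 0 and 0 FPKM, and neither had a fragment in siHDAC3. All 7 genes of this stretch were thus empty in siHDAC3 larvae, and all 7 were lower in siNC replicate 2 than in replicate 1.

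HaOG206783 and HaOG206784, on the minus strand of scaffold KZ150012.1 between 206091 and 217923, differed in their order over the controls. HaOG206783 had 719.5, 38.4 and 126.6 FPKM in siNC, whereas HaOG206784 had 7.51, 24.8 and 14.02 FPKM and was thus highest in replicate 2. The next gene, HaOG206785, was called lower, with 0.110, 0 and 0 FPKM in siHDAC3 and 29.5, 21.3 and 2.40 FPKM in siNC. HaOG205671 and HaOG205672, on the minus strand of scaffold KZ149983.1 between 234559 and 240726, had 40.4, 7.35 and 6.81 FPKM and 150.5, 45.7 and 59.2 FPKM in siNC. The next genes outward, HaOG205670 and HaOG205673, kept fragments in siHDAC3 and were not called. HaOG205673 had 0.139, 9.74 and 1.52 FPKM in siHDAC3 and 18.6, 2.99 and 4.68 FPKM in siNC, so its groups overlapped.

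The genes next to the silent genes were chosen by position, with the silent genes themselves left out by their values. They were tested with the fit across all genes. In that fit, made with limma, log2(FPKM + 1) in siHDAC3 was set against siNC over the 11093 genes that reached 0.5 FPKM in 3 or more libraries, and a gene was called at a Benjamini-Hochberg adjusted p under 0.05. It called 11.1% of the genes lower and 4.04% higher in siHDAC3 larvae, 1232 and 448 genes, or 15.1% in either direction. With the FPKM of each library divided by their sum, which moved the median log2 change over all genes to 0.68, it called 922 lower and 2868 higher. With quantile normalization the median moved to 0.27, with 1017 lower and 1008 higher. All 114 silent genes passed the filter, as the rule on siNC made them do, and 102 were called lower. This contrast chose them, so nothing is read from that count.

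Of the 189 annotated genes directly beside a silent gene and not silent themselves, 80 passed the filter. Among these 80, 31 (38.8%) were called lower in siHDAC3 larvae by limma, against 11.1% of all tested genes and 10.6% of the annotated ones that were not silent, and 0 were called higher, with 5 higher at an unadjusted p under 0.05 and 0 called higher by limma voom on fragments. With the FPKM of each library divided by their sum, 10 of the 80 (12.5%) were called higher, against 25.9% of all tested genes, and 33 (41.2%) lower, against 8.31%. Their median log2 change was -1.75, where that of all annotated genes tested was -0.03. The share called lower was 29.6% for genes 2 steps away, 16.2% at 3 steps, 13.1% at 4 steps and 19.0% at 5 steps. Beside the other genes called lower, 21.1% of 1383 tested genes were called lower, with genes of that set kept in the count. Counted in the same way, with silent genes kept, 49 of 102 tested genes (48.0%) beside a silent gene were called lower. The silent genes among these 102 were chosen by this contrast. The difference between these shares was not tested.

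**Figure D5:**
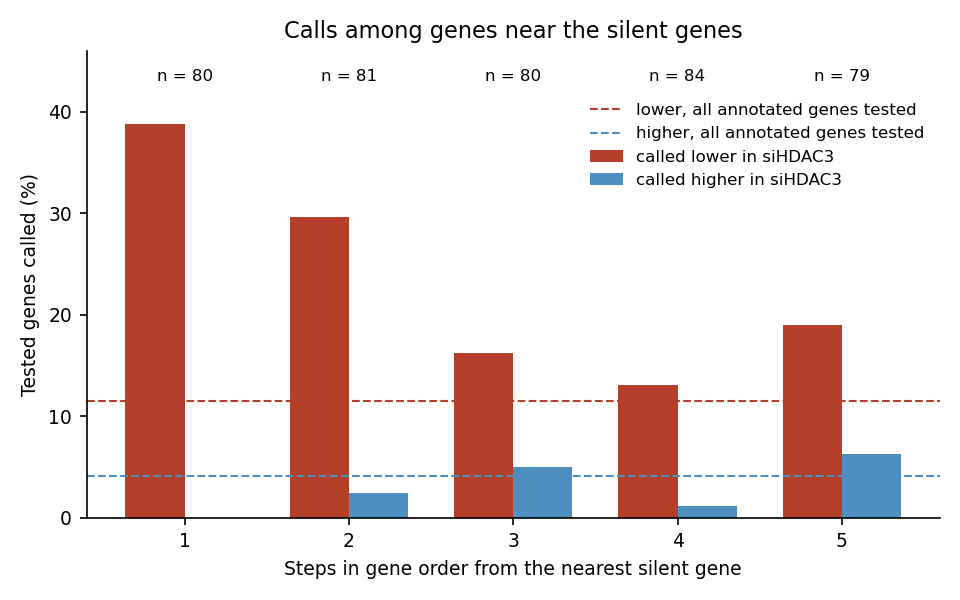
Share of tested genes (%) called lower or higher in siHDAC3 by limma, by steps in gene order from the nearest silent gene (silent genes left out, n tested above the bars), with dashed lines for all annotated genes tested, at 11.5% lower and 4.13% higher. At 1 step 38.8% were called lower and 0% higher. Genes that passed the filter through their siNC values alone are included.

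Of the neighbours on the strand of a silent gene beside them, 27 of 54 (50%) were called lower, and of those on the opposite strand 4 of 26 (15.4%). The difference between the strands was not tested. A gene that passes the filter through its siNC values alone has to differ. With the neighbours limited to those with at least 0.5 FPKM in at least 1 library of each group, 17 of 61 (27.9%) were called lower, against 8.74% of all tested genes limited in this way. These were 14 of 37 (37.8%) on the same strand and 3 of 24 (12.5%) on the opposite strand. Limma voom on the fragments called 17 of the 80 lower (21.2%), against 8.92% of all genes. With any 1 library left out the count was between 23 and 37. It was 23 of 97 (23.7%) without siHDAC3 replicate 3, against 5.47% of all tested genes in that fit. Without siNC replicate 2 it was 37 of 93 (39.8%), against 9.38%. Without siNC replicate 1 it was 30 of 85 (35.3%), against 7.69%.

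The neighbours with the largest falls were themselves close to silent. HaOG210208, beside HaOG210209, had 0.537, 0 and 0 FPKM in siHDAC3 replicates 1, 2 and 3, against 3545, 401.0 and 805.2 FPKM in siNC. The limma fit gave it a log2 change of -9.83 with a standard error of 0.76 and an adjusted p of 7.57e-04. HaOG208268, beside HaOG208267, had 0.0129, 0.184 and 0.151 FPKM in siHDAC3, against 1295, 930.3 and 788.4 FPKM in siNC. Here limma gave a log2 change of -9.79 with a standard error of 0.25 and an adjusted p of 3.045e-05. Its controls were even, while the silent HaOG208267 beside it had 4.29, 1.33 and 6.50 FPKM in siNC. HaOG200452, beside HaOG200453, had 0.234, 0 and 0 FPKM in siHDAC3 and 3003, 385.1 and 184.4 FPKM in siNC, and its log2 change of -9.13 had a standard error of 0.96 and an adjusted p of 0.00228 in limma. In all 3 neighbours the groups were far apart, and in HaOG210208 and HaOG200452 the few fragments left were in siHDAC3 replicate 1.

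The largest rises among neighbours were not called. HaOG207347, beside HaOG207348, had 0.373, 11.3 and 4.15 FPKM in siHDAC3 and 0, 0.0920 and 1.76 FPKM in siNC, and the groups overlapped (log2 change 1.61 with standard error 0.83, and adjusted p 0.242 by limma). HaOG215956 had a log2 change of 1.35 and HaOG202191 one of 1.32, with adjusted p of 0.107 and 0.394 from limma. HaOG207349, on the other side of HaOG207348, was called lower, with 4.16, 6.99 and 4.90 FPKM in siHDAC3 against 40.8, 68.8 and 66.2 FPKM in siNC. The silent gene between them thus had neighbours with log2 changes of opposite sign.

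Of the neighbours that did not pass the filter, many were empty. Among all 189 neighbours, 39 (20.6%) had no fragment in any of the 6 libraries, against 15.3% of all annotated genes, and another 41 (21.7%) had none in siHDAC3 but some in siNC, against 5.33% of all annotated genes. For 7 of the neighbours there was a silent gene on both sides, and none of these 7 had a fragment in siHDAC3. Of all 17082 annotated genes, 3517 had no fragment in any siHDAC3 library. Among the 7, HaOG216685 had no fragment in siNC either, and HaOG215351 held only 4, 3 and 10 there. HaOG200595, between HaOG200594 and HaOG200596 on scaffold KZ149861.1, was another of the 7, with 88.0, 0.104 and 4.88 FPKM in siNC. HaOG210109, between HaOG210108 and HaOG210110, had 1.82, 0 and 0 FPKM in siNC, although its silent neighbours were at 2294 and 541.1 FPKM in siNC replicate 1.

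A further feature was seen in the identifiers and was picked out after the values had been seen. Identifiers that begin with HaOG200 were carried by 35 of the 114 genes (30.7%) and by 8.83% of the other genes called lower. They were carried by 3.06% of the other genes at 1 FPKM or more in every siNC library and by 5.76% of all annotated genes. The other genes called lower thus also carried them more often than those sets. The files do not say what this block of numbers stands for. Its genes lie on 227 scaffolds, so the block is no single place in the genome. Of its 284 genes at 1 FPKM or more in every siNC library 12.3% were silent in siHDAC3, against 0.992% of the genes with other numbers. Of its 369 tested genes, silent ones included, 128 (34.7%) were called lower by limma, against 11.5% of all annotated genes tested.

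Some silent genes share their place with another gene. The span of 8 of the 114 genes overlapped that of another annotated gene, in 5 cases on the opposite strand. HaOG206460 and HaOG206461 lie within the span of HaOG206458 on the other strand. That gene had 0.116, 0 and 0 FPKM in siHDAC3 and 0.250, 0.133 and 0 FPKM in siNC. HaOG203617, with 458.8, 13.03 and 81.0 FPKM in siNC, lies within HaOG203615 on the other strand, which had 12.6, 43.7 and 9.93 FPKM in siHDAC3 and 31.5, 84.4 and 61.3 FPKM in siNC. The sources do not say whether the counting used strand, so reads of such partners cannot be told apart.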

How the data were processed

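RNA from whole larvae was sequenced, with 3 siHDAC3 and 3 siNC libraries. The authors deposited FPKM values with gene lengths and positions. The submitters' processing notes list the aligner Bowtie 0.12.2 and the mouse builds mm8 and mm9, which are not builds of this insect. The counting tool and the build of the scaffolds are not named there. The labels name a TruSeq kit and the paper an NEBNext kit. The steps of FPKM times length gave the fragments and, per library, the divisor. Divisors were not equal to the fragment sums, so the deposited values hold a scaling between libraries. In siHDAC3 replicates 1, 2 and 3 the divisors were 16787229, 11829387 and 14442513, and in siNC 7751255, 9717215 and 8102819. The fragment sums were 10442400, 10811323 and 10084667 in siHDAC3 and 11565408, 11970426 and 12389053 in siNC. Every siHDAC3 divisor was thus above its sum and every siNC divisor below it.

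Genes reaching 0.5 FPKM in 3 or more of 6 libraries (2 where a library was left out) were fitted as log2(FPKM + 1). The fit used limma 3.58.1 (R 4.3.3), a trended variance and p-values adjusted by Benjamini-Hochberg. The procedure was also run on simulated data, with a narrower spread between libraries than the silent genes had in siNC. That run therefore does not show how the fit behaves at such a spread. Gene order was taken from scaffold and start. The members, lists and alternatives were chosen with earlier results of these data known. Named were the silent genes with the highest and lowest siNC means, the extremes of span and spread, those at the limits of the rule, the 6 longest runs with the genes beside them, and the neighbours with the largest changes. Other genes named, such as those with a silent gene on both sides or overlapping one, were chosen after their values were seen.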

Additional observations from a re-analysis of the deposited data

How the results depend on the processing

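The number of silent genes was 142 with an siNC minimum of 0.5 FPKM, 87 with 2 FPKM, 124 with at least 10 fragments in every siNC library and 154 with at most 1 fragment over siHDAC3. With 1 library left out of the rule it was 118 to 179 (179 without siHDAC3 replicate 1, 175 without siNC replicate 2), and silent genes beside another numbered 22 to 52. The median limit of the fall was 331.0-fold with the deposited divisors and 169.2-fold with summed fragments, by construction, and 181.8-fold to 419.6-fold with 1 library left out.

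In the limma fits, scaling to the sum gave 2868 genes higher and quantile normalization 1008, by their shift of all genes. Among neighbours these gave 10 and 1 called higher, and voom on fragments gave 17 called lower. Limited to 0.5 FPKM in 1 library of each group, 17 neighbours were called lower, and on the opposite strand 4. Both limits together left 14 on the same strand and 3 on the opposite one. These limits, the same strand, the overlap, the summed fragments and the limit with 1 library left out were added after seeing the data. With 1 library left out, 641 to 1105 genes were lower and 115 to 433 higher, 52 to 95 silent genes were called lower, and 23 to 37 neighbours were called lower and 0 to 3 higher. Genes lower fell to 642 without siHDAC3 replicate 3 and 641 without siNC replicate 3, and fewer libraries also give less power. Genes higher fell to 149 without siHDAC3 replicate 3 and to 183, 251 and 115 without siNC replicates 1, 2 and 3. Silent genes called lower were 64, 65 and 52 without siHDAC3 replicates 1, 2 and 3.

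With the replicate block, 853 genes were called lower and 177 higher, with 27 neighbours lower. Deviations of same-numbered libraries correlated at -0.08, 0.07 and -0.01. With 3 libraries per group, such values cannot decide whether the numbers pair the libraries. Among the siHDAC3 libraries, replicate 2 correlated best with its own number and replicates 1 and 3 with another.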

Other observations

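In the other direction, 3 annotated genes had no fragment in any siNC library and at least 1 FPKM in every siHDAC3 library. HaOG200399 had 138.5, 3.36 and 148.3 FPKM in siHDAC3 replicates 1, 2 and 3, HaOG211829 had 2.50, 1.73 and 127.1 FPKM, and HaOG200387 had 1.09, 1.24 and 12.8 FPKM. With up to 3 fragments allowed in the siNC group, they were at least 747-fold, 621-fold and 35.1-fold higher in siHDAC3 larvae. The limits of HaOG211829 and HaOG200387 rest on siHDAC3 replicate 3, without which they were 30.0-fold and 8.13-fold, and that of HaOG200399 was then 548-fold.

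Among the transcripts outside the annotation, 7 also had no fragment in siHDAC3 and at least 1 FPKM in every siNC library. The most abundant had 0 fragments in siHDAC3 and 55.5, 29.8 and 32.8 FPKM in siNC. It lies on scaffold KZ149812.1 from 2287580 to 2288760, before the silent HaOG203860, and another lies on scaffold KZ149886.1 from 174548 to 175281, after the silent HaOG200170. The second of these had 0 fragments in siHDAC3 and 8.55, 7.26 and 8.70 FPKM in siNC.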
